A study of Homo sapiens and Mus musculus with 19 samples.

Results

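Chromosomes 2, 6, 14, 16, 17 and 20 gave more sequenced tags in the human liver tumour line HepG2 than in the human embryonic stem cell line H1ES. They held 630961 of the 2317745 tabulated human CCGG sites (hg38) and 151 of the 570 autosomal bins of 5 Mb, counted from position 1 of each chromosome. The 6 chromosomes were chosen by tag dosage. Dosage is the share of a library's autosomal tags that falls in a bin, divided by the mean share of that bin in the 2 libraries of 1000 H1ES cells, and then by the median of this ratio over all autosomal bins. A dosage of 1 is therefore the level of the middle autosomal bin of a library, not a copy number. Because dosage chose the chromosomes, it is described without a test, whereas the methylation of the tags was not used in the choice and was tested.

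The study counted tags at CCGG sites with DARESOME for DNA of bulk cells and scDARESOME for single cells, in human cell lines and mouse cerebellum. Used here were 2 libraries of 1000 H1ES cells, 2 of 1000 HepG2 cells, 5 single H1ES cells and 5 single HepG2 cells. The labels give HepG2 as a liver line of hepatocellular carcinoma and H1ES as an ES line, and name no treatment or genotype change for either. Bulk DNA was extracted with a kit, whereas single cells were stained with Calcein-AM and lysed. Each line stands alone for its tissue, and any gain or loss in H1ES enters every ratio as its inverse. Nothing in the labels says that libraries of a group came from separate cultures, so p-values measure the spread between these libraries, which may be technical.

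Tumour cells often carry extra copies of whole chromosomes or arms, and a segment present in more copies yields more fragments when DNA is cut and counted. HpaII cuts the sequence CCGG only where its inner cytosine is unmethylated, while MspI cuts it whether or not that cytosine is methylated. Tags from successive digests therefore count unmethylated and methylated (5mC) copies of the same site, and tags of another kind count hydroxymethylated (5hmC) copies. Methylation of a promoter usually accompanies silencing, the bodies of active genes are usually highly methylated, and tumour lines commonly lose methylation over long stretches with few genes.

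The sequences of 4 promoters on the 6 chromosomes are shown because each holds a CCGG site read in both lines, and the direction differed between promoters. Not every marked site was read. The sequences are the 250 bases before the start of each gene, read 5′ to 3′ on the gene's strand (RefSeq, GRCh38.p14), with each CCGG in capitals. HNF4A (chr20:44355449-44355698, plus strand) encodes a transcription factor that defines hepatocytes. SERPINA1 (chr14:94390636-94390885, minus strand) encodes alpha-1 antitrypsin, a protein secreted by the liver. PAX8 (chr2:113278922-113279171, minus strand) and SIM1 (chr6:100464922-100465171, minus strand) encode developmental transcription factors, of thyroid and kidney and of the hypothalamus, respectively.
HNF4A: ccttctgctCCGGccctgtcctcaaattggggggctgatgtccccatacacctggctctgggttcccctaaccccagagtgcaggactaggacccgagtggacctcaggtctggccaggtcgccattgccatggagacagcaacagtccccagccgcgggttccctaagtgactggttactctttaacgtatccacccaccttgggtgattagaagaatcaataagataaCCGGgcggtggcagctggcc
SERPINA1: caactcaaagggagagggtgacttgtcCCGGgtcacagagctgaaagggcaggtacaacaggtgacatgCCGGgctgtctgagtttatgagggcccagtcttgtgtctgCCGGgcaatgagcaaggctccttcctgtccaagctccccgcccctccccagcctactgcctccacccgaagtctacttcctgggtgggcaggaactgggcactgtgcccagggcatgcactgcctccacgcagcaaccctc
PAX8: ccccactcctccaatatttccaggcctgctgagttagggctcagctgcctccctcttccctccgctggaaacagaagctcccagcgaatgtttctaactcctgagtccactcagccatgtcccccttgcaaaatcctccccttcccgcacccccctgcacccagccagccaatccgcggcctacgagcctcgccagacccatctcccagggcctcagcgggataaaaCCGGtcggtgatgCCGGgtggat
SIM1: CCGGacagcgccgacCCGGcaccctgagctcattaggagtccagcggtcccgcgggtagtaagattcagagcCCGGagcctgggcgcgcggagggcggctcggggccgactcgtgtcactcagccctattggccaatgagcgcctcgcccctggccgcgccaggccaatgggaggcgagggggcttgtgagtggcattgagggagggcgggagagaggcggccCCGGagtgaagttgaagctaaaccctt
At the HNF4A site 241 bases before the start, 0 of 25 tags were unmethylated in the 1000-cell H1ES libraries and 29 of 31 in those of HepG2. At the HNF4A site 20 bases before the start, the counts were 0 of 15 and 34 of 36. A count of 0 allows an unmethylated share of up to 12% and 20% at these sites in H1ES, from counting error alone. The SERPINA1 site 141 bases before the start had 0 of 8 unmethylated tags in H1ES and 10 of 11 in HepG2. The SERPINA1 site 223 bases before the start had 1 of 9 and 2 of 4. The order was opposite at the PAX8 site 23 bases before the start, with 16 of 16 unmethylated tags in H1ES and 0 of 13 in HepG2. The SIM1 site 27 bases before the start had 8 of 8 in H1ES and 0 of 4 in HepG2. The other marked sites of SIM1 (250, 235 and 178 bases), PAX8 (10 bases) and SERPINA1 (181 bases) had 0 tags in these libraries. The counts of 0 at SERPINA1, PAX8 and SIM1 allow up to 37.5%, 23.1% and 75%, so that the SIM1 site hardly bounds the HepG2 share. CCGG, which reads the same on both strands, occurred in the same window of 71.2% of 15100 autosomal protein-coding genes and of 72.5% of the 4380 on the 6 chromosomes. PAX8 lies on chromosome 2 in a segment of dosage 1.43, HNF4A on chromosome 20 at 2.09, SERPINA1 on chromosome 14 at 1.002, and SIM1 on chromosome 6 at 0.893.

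The 1000-cell libraries held 4911898 to 6644517 tags and the single H1ES cells 757767 to 1543724. HepG2 cells 1, 2 and 4 held 526207 to 611318 tags, and cells 3 and 5 stood apart with 2455908 and 2434482. HepG2 was far less methylated than H1ES over all tags (60.6% and 61.7% 5mC against 93.6% and 94.2% in the 1000-cell libraries). Differences in bins, gene bodies and promoters are therefore also given relative to the odds of each library. These odds were pooled over the tested features of the same kind, so the baseline differs between bins, gene bodies and promoters. Of 8 hepatocyte markers, 3 had promoter tags in both lines, and all 3 (APOH, SERPINA1, HNF4A, all on the 6 chromosomes) had a higher unmethylated share in HepG2. Of 8 pluripotency markers, 5 had promoter tags, and 4 (NANOG, L1TD1, ZFP42, DPPA4) had a higher unmethylated share in H1ES; DNMT3B was at 0 in H1ES and 2.08% in HepG2. The defining markers ALB, AFP and FGB had no CCGG site in their promoters.

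The label of gained chromosomes held for whole chromosomes 2 and 20, and for parts of the other 4. Median dosage over the bins of chromosome 20 was 2.02 in both 1000-cell HepG2 libraries. On chromosome 16 it was 1.56 and 1.55, on chromosome 17 1.501 and 1.46, on chromosome 6 1.40 and 1.41, and on chromosome 2 1.41 and 1.39. Chromosome 14, at 1.04 and 1.05, was at the level of the other 16 autosomes, whose medians ran from 0.890 on chromosome 4 to 1.07 on chromosome 19. A dosage of at least 1.2 was reached by 120 of the 151 bins of the 6 chromosomes (79.5%), beside 123 of all 570 (21.6%). These counts describe the choice and support nothing further. All 49 bins of chromosome 2 and all 13 of chromosome 20 reached 1.2, as did 17 of 18 on chromosome 16, 25 of 35 on chromosome 6, 10 of 17 on chromosome 17 and 6 of 19 on chromosome 14. The bin just above was chr2:140000001-145000000 at 1.23, and the bin just below was chr6:110000001-115000000 at 1.12.

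Each of the 5 single HepG2 cells held the high dosage of chromosomes 2, 6, 16, 17 and 20. In cells 1 to 5, chromosome 20 was at 1.97, 1.95, 1.94, 2.09 and 2.08, and chromosome 16 at 1.59, 1.71, 1.52, 1.72 and 1.48. Chromosome 2 was at 1.44, 1.43, 1.49, 1.39 and 1.24, and chromosome 6 at 1.29, 1.25, 1.44, 1.29 and 1.41. Chromosome 17 was at 1.22, 1.601, 1.45, 1.62 and 1.45, so that cell 1 stood lowest there and cell 5 stood lowest on chromosome 2. The median of chromosome 17 spans a lower and a higher part. In the higher part, chr17:35000001-85000000, cells 1 to 5 were at 1.45, 1.73, 1.47, 1.75 and 1.53. In the 5 single H1ES cells the medians of the 6 chromosomes ran from 0.974 to 1.06, and no HepG2 value on chromosomes 2, 6, 16, 17 or 20 fell into that range. The other autosomes of the HepG2 cells ran from 0.748 (chromosome 13 in cell 2) to 1.28 (chromosome 19 in cell 4), a range that overlaps the lowest values of chromosomes 2, 6 and 17. The deep cells 3 and 5 both lay within the range of the 3 shallow ones on chromosomes 14 and 17, and outside it on chromosomes 2, 6 and 16.

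**Figure D1:**
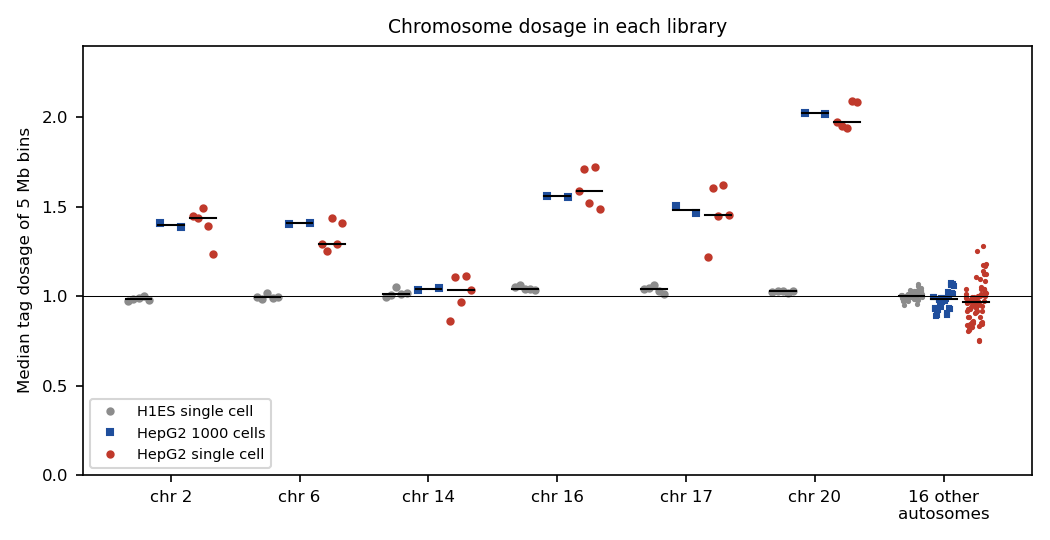
Median tag dosage (vertical axis, no unit, starting at 0) over the 5 Mb bins of each of the 6 chromosomes and of each of the 16 other autosomes; every point is 1 library (1 library and chromosome on the right), and black lines are medians of a group. Chromosome 20 lies near 2 in all HepG2 libraries, chromosomes 2, 6, 16 and 17 between 1.22 and 1.72, and chromosome 14 near 1.

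Dosage moved with how many CCGG sites a bin holds. In the 1000-cell HepG2 libraries, bins of the other autosomes had a median dosage of 0.878 in the class with the fewest sites and 1.06 in the class with the most, with classes set by the 4 quartiles of sites per bin. Bins of the 6 chromosomes went from 1.33 to 1.54 over the same classes. Over 419 bins of the other autosomes, Spearman's rho between dosage and sites was 0.749 and 0.724 in these libraries, 0.626 to 0.719 in HepG2 cells 1, 2, 4 and 5, and 0.219 in cell 3. In the 2 reference H1ES libraries, each divided by the mean of both, rho was 0.836 and -0.836, and in the single H1ES cells 0.161 to 0.324. The relation to sites was thus not particular to HepG2. The bins share a library and its depth. Divided by the median of other bins of like site density, chromosome 20 was at 2.02 and 2.01 in the 1000-cell libraries, chromosome 16 at 1.55 and 1.53, chromosome 2 at 1.48 and 1.46, chromosome 6 at 1.45 and 1.45, and chromosome 17 at 1.43 and 1.40. After the same division, the median of chromosome 17 still ranged from 1.21 in cell 1 to 1.45 in cell 3. In its higher part alone, chr17:40000001-85000000 after the division, these cells were at 1.35 and 1.47.

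Along the chromosomes, dosage changed in steps. Least-squares segmentation of 5 Mb bins placed 7 breakpoints, on chromosomes 2, 6, 14 and 17, and segmentation of 1 Mb bins placed 16, on all 6. The same 5 Mb segmentation also placed breakpoints in each of the 5 single H1ES cells, with 2 or 3 on chromosome 2 and 0 or 1 on chromosome 6. A breakpoint alone therefore does not mark a gain, and the size of each step is given below. Each step below was described from the mean of both 1000-cell HepG2 libraries, and window edges were read from the 250 kb profile after its values were seen.

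**Figure D2:**
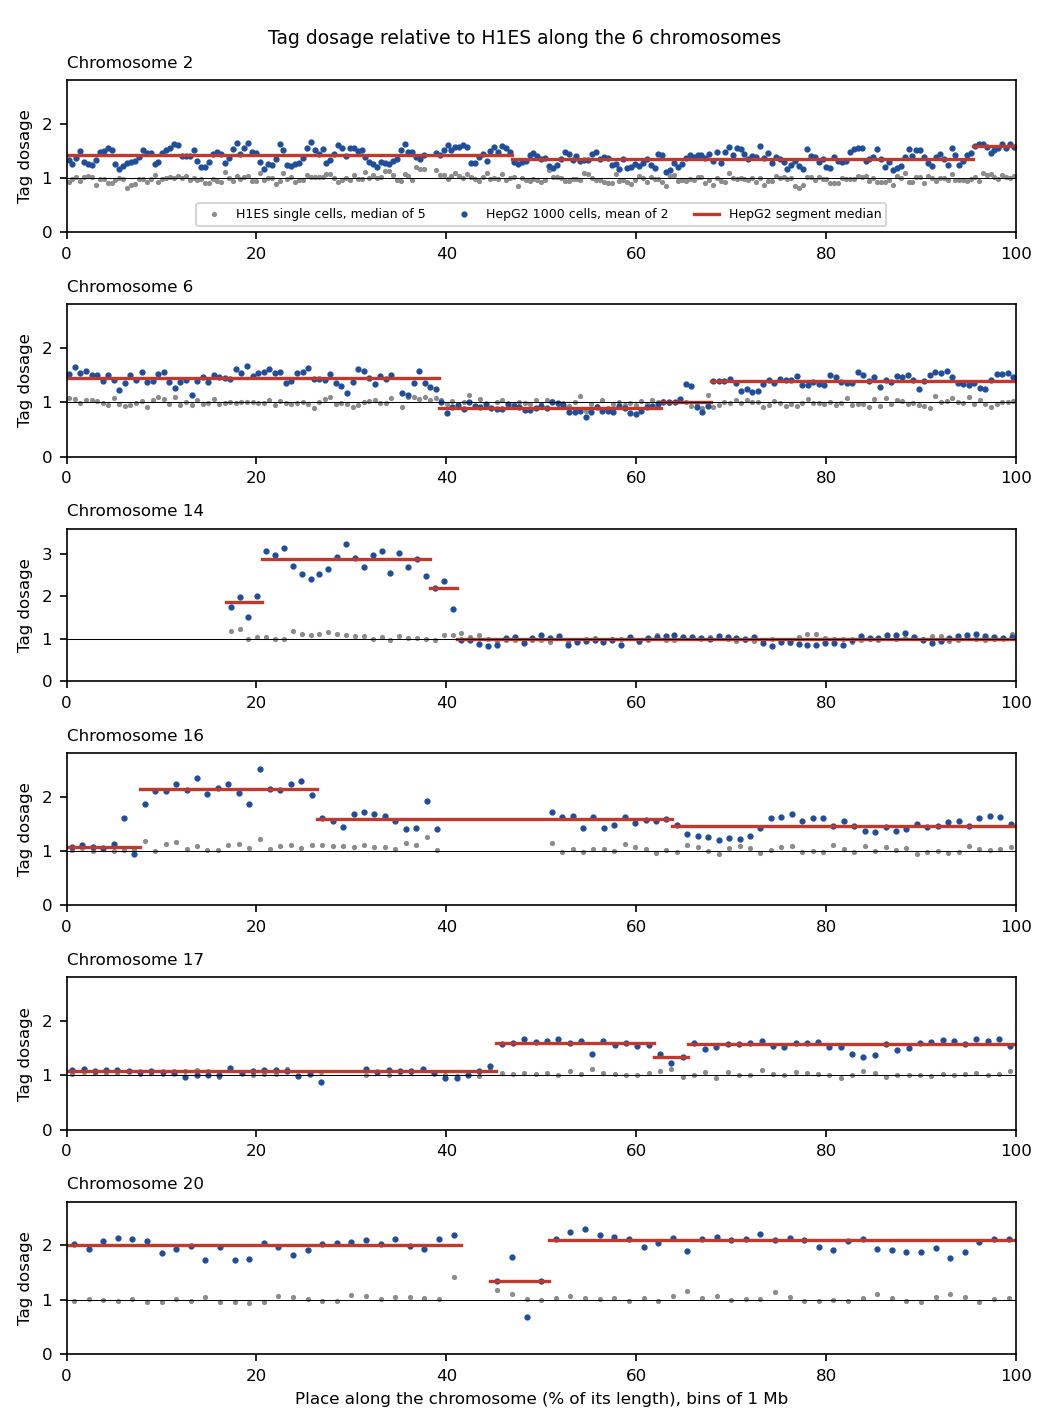
Tag dosage in 1 Mb bins (vertical axis, no unit) against the place along each of the 6 chromosomes (horizontal axis, % of its length); blue points are means of the 2 HepG2 1000-cell libraries, grey points medians of 5 single H1ES cells, red lines medians of the segments. Chromosome 14 falls from 2.88 to 1.002, chromosomes 6, 16 and 17 change level inside the chromosome, and chromosome 20 has a short dip.

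Chromosome 14 held the highest dosage of the 6. From 22 to 43.5 Mb it was at 2.87 (SD 6.93e-05, n = 2), a stretch that overlaps 130 protein-coding genes, among them FOXA1 (chr14:37589552-37595249), which opens liver chromatin for other factors, and NKX2-1 (chr14:36516397-36520232), a regulator of lung and thyroid. The segmentation of 1 Mb bins split off its end, with 2.88 from 22 to 41 Mb and 2.199 from 41 to 44 Mb, a segment that includes the fall. The stretch from 18 to 22 Mb was at 1.81 ± 0.0124, and the remainder of the chromosome was at 1.01 ± 0.00226. The fall took place within 500 kb. The window chr14:43000001-43250000 was at 3.47 and 3.48 in the 2 libraries, chr14:43250001-43500000 at 1.94 and 1.78, and chr14:43500001-43750000 at 0.921 and 0.883. The ratio of the high stretch to the remainder was 2.84 ± 0.00639 (n = 2) in the 1000-cell libraries and 2.74 to 2.98 in the 5 HepG2 cells, beside 1.02 to 1.08 in the 5 H1ES cells.

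Chromosome 6 was high at both ends and not in the middle. It was at 1.48 ± 0.00494 up to 67.5 Mb, at 0.924 ± 0.00536 from there to 111 Mb, and at 1.42 ± 0.0126 from 116 Mb on. The first step lay where no protein-coding gene overlaps either of the adjoining 1 Mb bins, with 1.27 and 1.13 in chr6:67250001-67500000 and 0.756 and 0.751 in chr6:67500001-67750000. The last step lay between adjoining 250 kb windows whose shared edge falls inside FRK (chr6:115931149-116100725), a tyrosine kinase gene. Dosage was 1.03 and 1.07 in chr6:115750001-116000000 and 1.56 in chr6:116000001-116250000 in both libraries. FRK fills only part of these windows, so the step was not placed within the gene. Between 111 and 113 Mb a short stretch of 11 genes, including FYN (a kinase), REV3L (a DNA polymerase subunit) and LAMA4 (a laminin), stood at 1.32 ± 0.0326, with 0.893 ± 0.00582 beyond it up to 116 Mb. The 5 HepG2 cells had ratios of 1.49 to 1.74 across the first step, 1.48 to 1.77 across the last, and 1.29 to 1.61 for the short stretch over the middle. None of the 5 H1ES cells exceeded 1.05 for any of these ratios.

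On chromosome 16 the first 5 Mb were at 1.09 ± 0.0189, the stretch from 7 to 24 Mb at 2.15 ± 0.0226, and the remainder at 1.55 ± 0.0136. Between the first and second of these lay a low window inside RBFOX1 (chr16:5239721-7713340), a very long gene for a neuronal splicing factor. Dosage was 2.02 and 1.999 in chr16:5000001-5250000, 0.881 and 0.833 in chr16:6000001-6250000, and 1.79 and 1.84 in chr16:7000001-7250000. From 5.75 to 6.75 Mb it was 0.865 ± 0.033 over 679 sites, all of them within RBFOX1 among protein-coding genes. The stretch from 7 to 24 Mb exceeded this window by 2.49 ± 0.0688 times in the 1000-cell libraries and by 2.27 to 4.30 times in the HepG2 cells, beside 0.981 to 1.24 times in the H1ES cells. Tags in the window were 26.8% 5mC in HepG2 and 96.9% in H1ES. The 1 Mb edge at 24 Mb lay inside PRKCB, a protein kinase C gene, but dosage was already 1.72 and 1.75 in chr16:23750001-24000000. The fall was not placed within the gene.

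Chromosome 17 changed once by a large step. It was at 1.07 ± 0.00843 up to 37.75 Mb and at 1.58 ± 0.0203 from there on, a ratio of 1.48 ± 0.00728 that was 1.41 to 1.70 in the HepG2 cells and 0.975 to 0.989 in the H1ES cells. The windows beside the step were at 1.05 and 1.13 (chr17:37500001-37750000) and at 1.67 and 1.73 (chr17:37750001-38000000). A cluster of TBC1D3 copies lies in the 1 Mb bins on its sides; reads of near-identical TBC1D3 copies may not be assigned to the right copy. POLR2A, the gene of the largest RNA polymerase II subunit, lies in the part at 1.07 and ERBB2 in the part at 1.58. A shallow dip between 52 and 55 Mb, at 1.33 between segments at 1.603 and 1.58, had its 1 Mb edges in CA10 and STXBP4. The 5 HepG2 cells ran from 0.879 to 1.53 there. In cell 3, the highest, the segments beside the dip were at 1.47 and 1.45, and no break was placed at its edges.

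**Figure D3:**
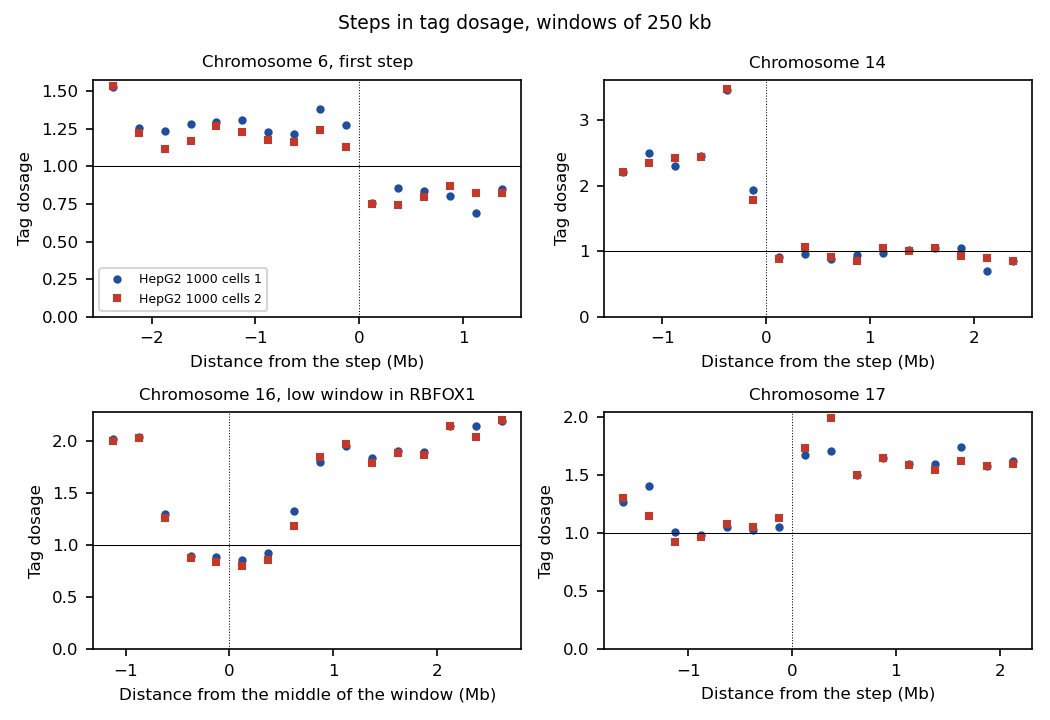
Tag dosage in 250 kb windows (vertical axis, no unit, starting at 0) in each of the 2 HepG2 1000-cell libraries against the distance in Mb from a step, or from the middle of the low window in RBFOX1; only windows with at least 50 reference tags are drawn. The libraries overlie each other, chromosome 14 falls from 3.47 to 0.902 within 500 kb, and the RBFOX1 window lies below 1 with values near 2 on both sides.

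Chromosome 2 was high throughout, at 1.45 ± 0.0134 up to 114 Mb, 1.38 ± 0.0125 to 232 Mb and 1.58 ± 0.0362 beyond. Its last stretch overlaps 99 protein-coding genes, and its 1 Mb edge lay in DIS3L2, an RNA exonuclease gene. After division by bins of like site density, the 5 Mb segmentation kept a break after chr2:115000000. It then gave 1 segment at 1.47 over chr2:135000001-245000000, with no break near 232 Mb. HepG2 cell 3 was nearly level over the 3 segments of 1 Mb bins, at 1.48, 1.46 and 1.49. Chromosome 20 was at 2.01 ± 0.00111 on the short arm up to 27 Mb and at 2.07 ± 0.0306 from 32.4 Mb on. Between 31 and 32.4 Mb its dosage was 0.696 ± 0.0242, and the 5 HepG2 cells were at 0.678 to 0.886 there.

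At this dip it was the H1ES libraries that stood apart. Per site with no other CCGG within 500 bp, chr20:31000001-32000000 held 3.51 and 3.07 times the genome median of tags in the 1000-cell H1ES libraries, rank 1 of 2764 bins of 1 Mb, whose 99th percentile was 1.22. The 5 single H1ES cells were at 3.23 to 3.72 there, and the 1000-cell HepG2 libraries at 2.22 and 2.15. The stretch overlaps 27 protein-coding genes, including BCL2L1 (which blocks cell death), TPX2 (a spindle protein) and ASXL1 (a chromatin regulator). HepG2 tags at these genes were thus above its genome median although their dosage was under 1.

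Methylation of the gained chromosomes differed little from that of the other autosomes. In the 1000-cell HepG2 libraries 62.0% ± 0.756 of tags on the 6 chromosomes and 60.7% ± 0.770 of those on the other 16 were 5mC (n = 2), a difference of 1.27 and 1.25 percentage points in the 2 libraries. In H1ES the shares were 93.7% ± 0.433 and 94.0% ± 0.484, and the difference was -0.281 and -0.354. The 2 lines did not overlap, but an exact permutation test (two-sided, 6 splits) gave p = 0.333 for the difference of 1.58 points, the smallest p that 2 libraries against 2 allow, and 0.333 after Benjamini-Hochberg adjustment over 3 kinds of tag. The single HepG2 cells were at 0.458, 0.533, 1.29, 1.05 and 0.918 points, above 0 in 5 of 5, and the single H1ES cells at -0.350 to -0.193, above 0 in 0 of 5. For 5hmC the difference was 0.0128 points in HepG2 and 0.0386 in H1ES, with p = 0.333 in the same exact test.

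The difference in 5mC was not shared by all classes of site density. It was -0.853 points in the class of bins with the fewest sites, 3.14 in the second, -0.615 in the third and -0.580 in the class with the most sites (HepG2 1000-cell means). With equal weight for the 4 classes, the difference between the lines fell from 1.58 to 0.371 points, and over sites with at least 5 tags it was 0.0592 (exact permutation p = 1). Across the 151 bins of the 6 chromosomes, 5mC had a Spearman's rho of 0.582 with the number of sites and 0.275 with dosage, and sites had 0.381 with dosage. These bins share their libraries and their base composition, so the values are descriptions. In single HepG2 cells the second class was at 2.52 points or more, as in the 1000-cell libraries.

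**Figure D4:**
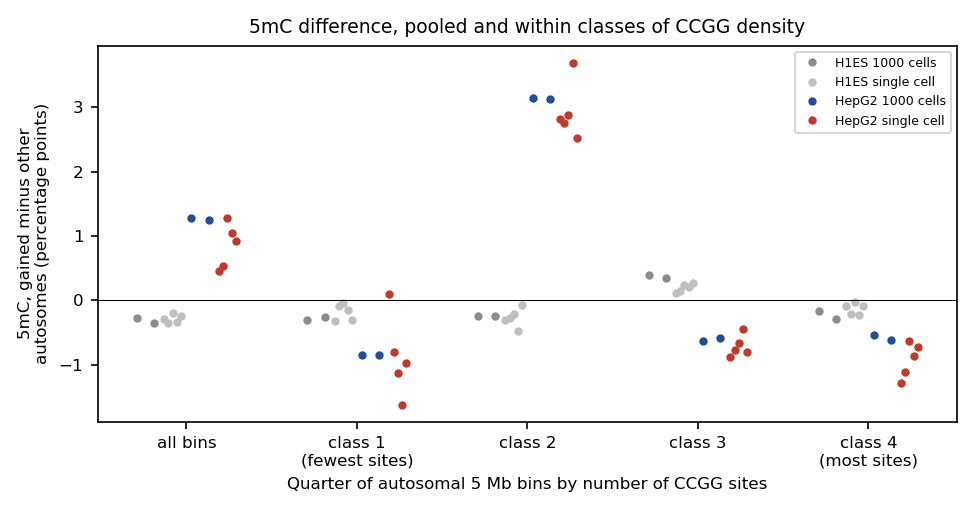
Difference in 5mC between the 6 chromosomes and the other autosomes (vertical axis, percentage points) for all bins and for 4 classes of 5 Mb bins by their number of CCGG sites; each point is 1 library. In HepG2 the difference is about 3 points in the second class and under 0 in most libraries in the other 3, and in H1ES it stays within 0.5 points of 0.

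Chromosome by chromosome, 5mC in HepG2 did not follow dosage. Chromosome 17 was highest at 67.3% ± 0.788, followed by chromosome 16 at 63.9%, chromosome 14 at 61.7%, chromosome 6 at 60.8% and chromosome 2 at 60.1%. Chromosome 20, which had the highest median dosage, was lowest at 59.1% ± 0.639. The other autosomes ran from 55.4% (chromosome 4) to 67.4% (chromosome 19), so all 6 lay within that range. The share of 100 kb bins under 50% 5mC in both HepG2 libraries was 45.9% on the 6 chromosomes, 49.3% on the others and 29.9% on chromosome 17, and under 0.1% of bins were that low in either H1ES library on the 6 chromosomes together.

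Within a chromosome, the part of higher dosage was more methylated in some cases and less in others. On chromosome 6 the part with a segment dosage of at least 1.2 was at 61.6% ± 0.785 and the lower part at 55.7% ± 1.05, a difference of 5.87 points, with 2.85 to 6.08 in the 5 HepG2 cells. In H1ES the same sites differed by -1.33 points. The lower part was uneven, with 49.8% from 67 to 107 Mb and 71.0% from 107 to 116 Mb, the latter above both segments of higher dosage (62.8% and 59.98%). On chromosome 14 the difference was -3.98 points in HepG2 (-5.21 to -2.78 in the cells) and -0.990 in H1ES, and on chromosome 16 it was -3.73 (-3.54 to -2.38 in the cells) and 1.79. On chromosome 17 it was 0.852 in the 1000-cell libraries and -1.20 to 1.45 in the cells, and -0.907 in H1ES. These comparisons set different sites against each other.

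Single bins spanned a far wider range than chromosomes. The least methylated bin of the 6 chromosomes in HepG2 was chr16:60000001-65000000 at 27.5% ± 0.661, followed among the chromosomes' lowest bins by chr6:90000001-95000000 at 29.9% ± 0.346 and chr14:40000001-45000000 at 32.3% ± 0.286. In H1ES these bins were at 97.7%, 96.0% and 96.9%. The lowest bins of chromosomes 2, 20 and 17 were chr2:140000001-145000000 at 37.8%, chr20:55000001-60000000 at 41.2% and chr17:20000001-25000000 at 50.2%. The most methylated were chr17:80000001-85000000 at 78.8% ± 0.664 and chr2:200000001-205000000 at 77.8% ± 0.892, which were at 93.7% and 95.1% in H1ES. On chromosomes 14, 16, 6 and 20 the highest bins were at 73.8%, 73.1%, 71.4% and 70.3%. In the single HepG2 cells the lowest bin of chromosome 16 was at 26.1% to 32.5% and the highest of chromosome 17 at 77.1% to 79.9%, and the order of the bins differed between cells.

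Every tested bin was less methylated in HepG2. edgeR's quasi-likelihood test with Benjamini-Hochberg adjustment called all 151 bins of the 6 chromosomes lower, as it did all 569 autosomal bins (100%). The median log2 odds of a 5mC tag was -3.43 for bins of the 6 chromosomes and -3.52 for all. Relative to the odds of each library over all tested bins, which removes the shift between the lines in these bins, 138 of the 151 were called (91.4%, beside 90.2% of all bins). Of the 151, 61 were higher in HepG2 (40.4%, beside 33.7% of all bins) and 77 lower (51%, beside 56.4%).

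Gene bodies were less uniform than bins. Among 3903 tested genes of the 6 chromosomes, edgeR called 2227 (57.1%, beside 57.4% of 13438 autosomal genes). Of the 3903, 104 were more methylated in HepG2 (2.66%, beside 2.49% of all) and 2123 less (54.4%, beside 54.9%). Relative to the odds of each library over all tested gene bodies, 1390 were higher and 902 lower (35.6% and 23.1%, beside 35% and 24.5% of all, and 58.7% beside 59.6% in either direction). The share of calls on the 6 chromosomes was thus near the background in each direction. The median log2 odds over all genes was -1.94 and moved to 0.77 under the relative scaling, so a direction below holds for the odds as counted unless stated otherwise. A relative log2 odds above 0 but under 0.77 is thus lower than that of the middle gene.

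Of 18 liver genes tested, 13 bodies were less methylated in HepG2, 1 more and 4 not called, with a median log2 odds of -2.32, beside 54.9% of all genes lower and a median of -1.94. SERPINA1 was at 95.9% and 93.8% 5mC in the H1ES libraries and at 32.1% and 19.4% in those of HepG2 (adjusted p = 6.27e-15, edgeR). LPA, which encodes the protein of lipoprotein(a), was at 97.3% and 97.5% against 48.3% in both HepG2 libraries (adjusted p = 1.05e-38, edgeR). ABCB11, the bile salt export pump, was at 100% in both H1ES libraries and at 71.8% and 66.7% in HepG2 (adjusted p = 1.24e-14, edgeR). HNF4A fell less, from 95.7% ± 1.83 to 85.0% ± 1.41 (adjusted p = 1.17e-10, edgeR), and rose by 0.98 in log2 odds relative to its library, against a fall by 1.89 as counted. Under the relative scaling 2 of the 18 were higher and 3 lower, beside 35% and 24.5% of all genes.

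Of 20 cancer-promoting genes, 9 were lower, 0 higher and 11 not called, beside 54.9% of all genes lower and 2.49% higher. Of the 20, 9 were also lower at an unadjusted p under 0.05 in edgeR, and 6 and 7 were called by DESeq2 and limma. ALK, a receptor tyrosine kinase gene (chr2:29192774-29921586), was at 96.8% and 96.4% in H1ES and at 25.4% and 25.9% in HepG2. MYB, a transcription factor gene, was at 81.0% and 79.8% against 52.9% and 48.8% (adjusted p = 3.34e-08, edgeR), and CCND3, a cyclin gene, was at 91.8% ± 1.26 against 64.3% ± 0.652 (adjusted p = 5.37e-53, edgeR). BCL2L1, inside the reference stretch of chromosome 20, was at 95.3% ± 0.531 against 85.3% ± 0.410. Under the relative scaling 11 of the 20 were higher and 1 lower, beside 35% and 24.5% of all genes. MYB, CCND3 and BCL2L1 then had log2 odds of 0.93, 0.22 and 1.10, of which that of CCND3 lay under the median over all genes.

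Of 18 tumour-suppressing genes, 6 were lower, 1 higher and 11 not called, beside 54.9% of all genes lower and 2.49% higher. LRP1B, a lipoprotein receptor gene of chromosome 2, was at 98.2% and 98.95% in H1ES and at 29.5% and 29.6% in HepG2. PRDM1, a transcription repressor gene in the low stretch of chromosome 6, was at 85.4% and 85.3% against 31.2% and 36.4% (adjusted p = 2.37e-40, edgeR). WWOX, which spans a fragile site of chromosome 16, kept 84.2% ± 0.691 against 96.5% ± 0.502 (adjusted p = 2.83e-86, edgeR) and had a log2 odds of 0.53 relative to its library. Under that scaling 13 of the 18 were higher and 3 lower, beside 35% and 24.5% of all genes. WWOX then lay under the median over all genes.

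Genes of pluripotency and de novo methylation were lower in 4 of 7, higher in 2 and not called in 1. ESRRB, a receptor of the stem cell network, was at 93.6% and 93.1% against 49.5% in both HepG2 libraries, and VRTN at 89.7% and 94.7% against 39.5% and 44.3%. DNMT3A, a de novo methyltransferase, was at 87.0% and 87.5% against 80.0% and 81.4% (adjusted p = 9.66e-06, edgeR), although limma did not call it; relative to its library its log2 odds was 2.18. DNMT3B was higher, at 92.6% against 97.4% (adjusted p = 0.00111, edgeR). Under the relative scaling 4 of the 7 were higher and 2 lower. Imprinted genes were lower in 8 of 11 and higher in 0; ZDBF2 was at 98.8% and 98.9% against 58.6% and 66.3%, and CMKLR2 at 96.6% and 94.7% against 52.4% and 53.5%. DESeq2 called 6 and limma 5 of the imprinted bodies, and edgeR 8 without adjustment. Under the relative scaling 8 of these 11 were higher and 2 lower. Both lists stand beside 54.9% of all genes lower and 2.49% higher as counted, and 35% higher and 24.5% lower under the relative scaling.

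Of 11 developmental regulators tested, of 28 listed, 5 bodies were higher in HepG2, 3 lower and 3 not called, with a median log2 odds of 0.07, and 10 of 11 were higher under the relative scaling. TBX2 and TBX4, neighbouring T-box genes of limb and heart on chromosome 17, were among them. TBX2 was at 17.6% and 21.6% in H1ES and at 100% and 97.0% in HepG2 (adjusted p = 2.89e-22, edgeR), and TBX4 at 57.6% and 66.9% against 86.9% and 88.9% (adjusted p = 9.79e-18, edgeR). PAX8 and PAX3, a neural crest factor gene, were lower, at 60.4% against 90.2% and at 30.1% against 63.9%. Both had a positive log2 odds relative to their library (0.31 and 0.87), although that of PAX8 lay under the median over all genes. Of 4 housekeeping genes, 1 was higher (ACTG1, cytoplasmic actin, 58.7% against 30.7%, adjusted p = 0.0346, edgeR) and 3 were not called. ACTG1 was not called with a replicate block, by DESeq2, or without any 1 of the 4 libraries. Beside these lists, 2.49% of all genes were higher and 54.9% lower as counted, and 35% higher and 24.5% lower under the relative scaling. The members of these lists were chosen by name, and their counts are not independent of earlier results of these data.

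Promoters, taken as 1000 bp on each side of the gene start, were tested for their unmethylated share. The minimum of 10 tags in each library was reached by 1336 of 4380 promoters on the 6 chromosomes and by 3745 of all 15100 autosomal promoters. Most promoters were therefore not tested. Tags at a promoter depend on dosage, which chose the chromosomes, and the part of this in the shares was not tested. Among the 1336 on the 6 chromosomes, edgeR called 506 (37.9%, beside 35.3% of the 3745). Of the 1336, 423 had a higher share in HepG2 (31.7%, beside 30.1% of all) and 83 a lower share (6.21%, beside 5.26%). Relative to the odds of each library over all tested promoters, the counts were 262 and 131 (19.6% and 9.81%, beside 19.5% and 8.84%, and 29.4% beside 28.3% in either direction). The median log2 odds over all promoters was 1.12 and moved to 0.29 under that scaling. Without either H1ES library edgeR called 0 promoters, with 1162 and 1398 at an unadjusted p under 0.05, and without either HepG2 library 423 and 676. Each of these fits compared 1 library with 2.

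All 4 liver promoters tested, of 25 listed, were less methylated in HepG2, beside 30.1% of all promoters with a higher unmethylated share. HNF4A was unmethylated in 0 and 3.4% of tags in the H1ES libraries (33 and 29 tags) and in 90.7% and 95.2% in those of HepG2 (54 and 62 tags; adjusted p = 1.45e-31, edgeR). Pooled over single cells it had 0 of 30 unmethylated tags in H1ES and 37 of 44 in HepG2. PROC, the gene of the anticoagulant protein C on chromosome 2, was at 0 in 55 H1ES tags, which allows up to 5.45%, and at 78.1% and 83.9% in HepG2 (adjusted p = 1.56e-17, edgeR). APOH, the gene of a plasma glycoprotein on chromosome 17, was at 0 in 31 H1ES tags, which allows up to 9.68%, and at 91.7% and 87.9% in HepG2 (adjusted p = 1.01e-13, edgeR). SERPINA1 was at 0 and 5.9% against 42.9% and 33.3% (adjusted p = 0.00127, edgeR). These 4 genes lie at dosages of 2.09, 1.35, 1.58 and 1.002 in the order named. Without H1ES replicate 1 or 2 the adjusted p of HNF4A was 0.0554 and 0.0632 in edgeR, and that of the other 3 was also above 0.05. With 1 library left out at a time, the log2 odds of HNF4A ran from 8.37 to 11.6, beside 9.33 with all libraries. Those of PROC and APOH moved by less than 1 without any library, although they depend on the prior count. SERPINA1 was above 0.05 without any 1 of the 4 libraries.

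Developmental regulators with enough tags were mostly more methylated at the promoter in HepG2. Of 10 tested, of 28 listed, 6 were lower in unmethylated share, 1 was higher and 3 were not called. Of all promoters, 5.26% were lower and 30.1% higher. TBX4 was at 65.7% and 73.7% unmethylated in H1ES and at 0 in 52 HepG2 tags, which allows up to 5.77% (adjusted p = 3.27e-12, edgeR). SIM1 was at 84.8% and 100% against 27.3% and 28.6% (adjusted p = 2.65e-08, edgeR), and NKX2-1 at 95.7% and 94.1% against 64.7% and 63.0% (adjusted p = 0.00213, edgeR). PAX8 was at 61.1% and 80.0% against 26.3% and 18.2% (adjusted p = 0.00663, edgeR), and HOXD13 (85.1% against 52.5%) and GBX2 (65.5% against 26.3%) were lower at adjusted p = 0.01998 and 0.0474 (edgeR). FOXC1, a forkhead factor gene of chromosome 6, was higher, at 84.0% against 100% (adjusted p = 0.0222, edgeR), and was not called relative to its library.

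In the remaining lists, 2 promoters were called, beside 35.3% of all promoters tested. They were 1 of 2 tested for pluripotency and de novo methylation (8 listed) and 1 of 5 tested for imprinted genes (14 listed). ESRRB was at 60.0% and 37.5% unmethylated in H1ES and at 15.4% and 10.7% in HepG2 (adjusted p = 0.00137, edgeR), and the imprinted DIO3, a thyroid hormone deiodinase gene, at 19.6% and 22.2% against 3.2% and 0 (adjusted p = 0.00754, edgeR; not called by DESeq2). None of the 6 cancer-promoting, 3 tumour-suppressing or 2 housekeeping promoters tested, of 22, 18 and 10 listed, was called by edgeR, DESeq2 or limma. At an unadjusted p under 0.05 in edgeR the counts were 2, 0 and 0. ERBB2, a growth factor receptor gene in the gained part of chromosome 17, was at 61.5% and 42.9% in H1ES and at 90.0% and 68.2% in HepG2 (adjusted p = 0.0509, edgeR), and RPS6KB1, a kinase gene of the same part, at 65.4% and 100% against 94.4% and 100%. At ERBB2 the libraries of both lines differed widely, and at RPS6KB1 those of H1ES.

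Within the 6 chromosomes, sites with tags of both kinds in 1 HepG2 cell were more frequent in segments of higher dosage. Among sites of a HepG2 cell with exactly 2 tags, 18.1% to 22.0% held 1 unmethylated and 1 5mC tag in segments of dosage at least 1.2 on the 6 chromosomes, and 13.5% to 17.7% in their segments under 1.2. The difference was above 0 in 5 of 5 cells, at 3.49 to 5.11 points. At 3 tags the shares were 27.0% to 32.8% and 22.5% to 27.2%, again higher in 5 of 5 cells, and at 4 tags 31.6% to 39.1% and 23.8% to 32.1%, with differences of 0.542 to 9.02 points. On the other autosomes the share at 2 tags was 15.96% to 20.6%, in each cell between those of the higher and the lower segments. The other autosomes, with median dosages of 0.890 to 1.07, thus held more mixed sites at 2 tags than the segments under 1.2. At 4 tags the other autosomes lay under both kinds of segment in cells 1 and 4, at 31.2% and 28.5%. In the H1ES cells, the same segments differed by -0.117 to 0.381 points at 2 tags (higher in 3 of 5), by 0.0697 to 0.891 at 3 tags (5 of 5) and by -0.204 to 2.04 at 4 tags (4 of 5). In HepG2 cell 1 the shares at 2 tags were 18.1% (exact Clopper-Pearson 95% interval 17.7% to 18.6%, 25270 sites) and 14.6% (13.4% to 15.8%, 3508 sites), and such intervals cover counting error only. The unmethylated share of the tags at these sites also differed, at 35.3% and 31.8% in that cell, and its part in the result was not tested. Whether 2 tags of a site came from 1 copy or from 2 is not given in the sources used here.

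The 6 chromosomes as a whole differed less from the other autosomes. At 2 tags the HepG2 cells held 17.7% to 21.0% mixed sites on them, with a median difference of 1.502 points from the others, higher in 5 of 5 cells. The H1ES cells were also higher in 5 of 5 at 2 tags, by 0.0441 to 0.274 points. The medians in HepG2 were 2.26 points at 3 tags and 2.57 at 4 tags, also higher in 5 of 5, and in H1ES 3 and 2 of 5 cells were higher. In the 2 deep cells the difference at 2 tags was smallest in cell 5, at 0.386.

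**Figure D5:**
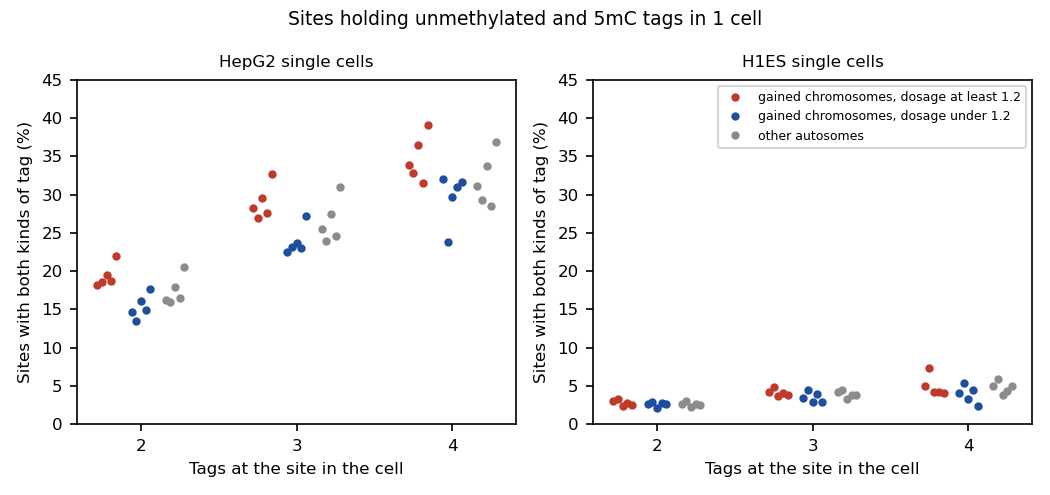
Share of sites with both an unmethylated and a 5mC tag (vertical axis, %) among sites with exactly 2, 3 or 4 tags in a single cell (horizontal axis), in segments of the 6 chromosomes with dosage of at least 1.2, in their segments under 1.2, and on the other autosomes; each point is 1 cell. In HepG2 the segments of higher dosage lie above those of lower dosage in every cell at 2 and 3 tags, and in H1ES all values stay under 8%.

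Pooled over the 6 chromosomes, the 1000-cell libraries had the same order at single sites. Among HepG2 sites with 10 to 20 tags, an unmethylated share between 25% and 75% was found at 23.5% and 23.1% of sites in segments of dosage at least 1.2 on the 6 chromosomes (60339 and 44308 sites). In their segments under 1.2 it was found at 15.9% and 16.3% (5042 and 3099 sites), and on the other autosomes at 20.5% and 20.2%. The intervals of the first pair (Clopper-Pearson, 23.2% to 23.9% and 22.7% to 23.5%) did not reach those of the second (14.9% to 16.9% and 14.98% to 17.6%). Chromosome 20 had the highest share of the 6, at 26.5% and 25.5%, and chromosome 17 the lowest, at 18.6% and 18.5%. Chromosome 17 did not follow the pooled order: its first segment (dosage 1.08) was at 19.6% and 20.2%, beside 17.7% and 18.1% in its last (dosage 1.58). In H1ES such sites were rare, at 2.17% on the 6 chromosomes and 2.09% on the others in replicate 1. Tags per site within this range were not matched between the segments.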

How the data were processed

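DARESOME and scDARESOME tags at CCGG sites were tabulated by the authors. Bowtie2 2.3.4.1, hg38, cutadapt 1.5 and UMI-tools 0.5.4 are named in the processing notes of the submitters; their settings are not given in the sources used here. Each deposited table has no header: 3 columns hold the fraction of a site's tags of each kind, and the last the count of tags, both as the authors deposited them. The unmethylated column was told from its values and the 2 others were taken as 5mC and 5hmC by size, which the files do not state. Tags of each kind were recovered as fraction times count. The 14 human libraries held 526207 to 6644517 tags. Dosage was computed in bins of 5 Mb and 1 Mb and segmented by least squares (at least 3 bins a segment, at most 3 breakpoints a chromosome). Counts of 5mC or unmethylated tags against other tags were tested between the 1000-cell libraries with edgeR 4.0.16 (R 4.3.3) in bins and gene bodies with at least 20 tags in each library and promoters with at least 10, with adjusted p under 0.05 as the threshold and without a replicate block. DESeq2 1.42.0, limma 3.58.1, other tag minimums, relative odds, a replicate block and leaving out each library were alternatives. The scripts (Python 3.11.15, SciPy 1.17.1, matplotlib 3.10.9) were tested on simulated data. Named genes were, per list, up to 4 with the smallest p for the body and for the promoter, the genes at breakpoints, and HNF4A; other genes were named for their position, or to complete a list, after values were seen. The chromosomes and lists were chosen with earlier results of these data known. Some items of these lists are not reported here. Intervals and limits cover counting error only.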

Additional observations from a re-analysis of the deposited data

Results flagged for a closer look

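In HepG2 single cell 3, 60.1% of tags on the 6 chromosomes were 5mC, and this cell lay apart from the other 4 HepG2 cells by more than the spread among them. It was 1 of 34 groups of values so tested, of which chance marks about 1 in 20. On the other autosomes the same cell was low as well, at 58.9% beside 62.1% to 63.2% in the other 4. The low share was thus not particular to the 6 chromosomes. The cell is also among the 2 with the most tags of that line's cells (2455908 and 2434482), and the part of depth was not tested. The difference in 5mC between the 6 chromosomes and the other autosomes was of opposite sign in the lines, 1.58 percentage points higher in HepG2 (exact permutation p = 0.333). On 3 of the 4 chromosomes that hold both, the higher minus the lower dosage part also had opposite signs in the 1000-cell libraries of the lines, with chromosome 14 the exception. HepG2 minus H1ES was 7.20 points on chromosome 6, -5.52 on chromosome 16 and 1.76 on chromosome 17, and these 3 differences were not tested.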

How the results depend on the processing

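Median dosage over the bins of the 6 chromosomes was 1.43. It was 1.41 in 1 Mb bins, 1.44 in 10 Mb bins, 1.36 with a site counted up to 10 tags, 1.48 scaled to the other autosomes, and 1.05 by sites holding at least 1 tag. With alternatives added after seeing the data it was 1.47 (divided by bins of like density) and 1.45 (single H1ES cells as the reference). Leaving out each 1000-cell library gave 1.39 to 1.46. In single cells the value of 1.42 became 1.29 by sites with a tag, 1.4998 scaled to the other autosomes and 1.49 by density. The 7 breakpoints became 16 in 1 Mb bins and 11 with at least 2 bins a segment. The 5hmC difference of -0.0259 points reversed to 0.000235 as a mean over sites and to 0.0176 with equal weight for density classes. The 5mC difference kept its sign under every alternative tried, at 0.0592 to 2.25 points.

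The 1323 promoters called became 2608 without a tag minimum beyond 1, 256 with the higher minimum, and 0 to 676 leaving out each library. Of 539 alternative values of named genes, 488 kept direction and side of the threshold, 40 no longer passed it, 1 newly passed it and 10 reversed. The reversals were all gene bodies relative to the odds of each library, with log2 odds of 0.98 (HNF4A), 0.22 (CCND3), 0.93 (MYB), 1.10 (BCL2L1), 0.53 (WWOX), 2.18 (DNMT3A), 0.76 (L3MBTL1), 1.004 (SLC22A3), 0.87 (PAX3) and 0.31 (PAX8). Those of CCND3, WWOX, L3MBTL1 and PAX8 lay under the median over all genes on that scale.

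Same-numbered libraries of the lines were not shown to be paired, since the correlation of their deviations was -0.215 over bins, 0.0134 over gene bodies and 0.00638 over promoters with 2 pairs. With a replicate block, 569 bins, 7534 gene bodies and 1163 promoters were called, beside 569, 7712 and 1323 without it. Crossing the numbers gave 569 bins. With 2 libraries a line, a promoter of 10 tags resolves large differences only, and shallow single cells give few tags a site.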

Other observations

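Outside the 6 chromosomes, 3 bins had a dosage of at least 1.2 in the 1000-cell HepG2 libraries. They were chr1:140000001-145000000 at 1.54, chr21:5000001-10000000 at 1.33 and chr4:190000001-195000000 at 1.22, with 868.5, 2631 and 258 tags in the reference. In single cells, chromosome 11 was at 1.25 in HepG2 cell 3, and at 0.981 in the mean of the 1000-cell libraries. Per isolated site, chr16:46000001-47000000 ranked second of 2764 bins in the 1000-cell H1ES libraries, at 2.74 and 2.26 times the genome median, and was at 4.65 and 4.55 in HepG2.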
